A study of Mus musculus with 8 samples.

Results

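The nuclear factor I family is a set of 4 transcription factor genes, Nfia, Nfib, Nfic and Nfix. They were taken by gene symbol from tables of 21878 genes, and all 4 were among the 14726 genes with enough counts to test. The transcription factor column of the deposited annotation gives the class CTF/NFI to these 4 genes and to no other of its 1368 annotated rows. The study sequenced liver messenger RNA from C57BL/6 mice. Libraries labelled KO came from mice with floxed Nfib alleles and Alb-Cre, written nfib-/- in the labels, and comprised 2 tumors and 1 normal liver. Libraries labelled WT came from wild-type mice and comprised 3 tumors and 2 normal livers. The labels give an age of 14 to 16 days for tumor and normal liver alike, with no other source here to check the unit, and name no agent that would have caused the tumors. Alb-Cre uses the albumin promoter, which is active in hepatocytes, so endothelial, stellate and blood cells in a KO liver keep an intact Nfib gene. The labels give tumor and normal libraries the same numbers but do not say whether an equal number means 1 animal, so p-values measure the spread between these libraries, whatever their source.

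Proteins of this family bind DNA as homodimers or heterodimers at a palindromic site, and can raise or lower transcription of nearby genes. They share a conserved amino-terminal DNA-binding and dimerization domain and differ in the carboxy-terminal part that regulates transcription. In mice the family is known for roles in brain, lung, tooth and muscle development, and binding sites for it have long been described in promoters and enhancers of liver genes, the albumin promoter among them.

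The 4 coding sequences are alike but not identical, which bears on whether reads of one member could be counted for another. The same stretch of 60 bases, early in each coding sequence and within the part that encodes the DNA-binding domain, comes from the GENCODE M21 transcripts of GRCm38. In Nfib it is bases 179 to 238 of the coding sequence, counted from the A of the start codon. Capitals mark bases that differ from Nfib.

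Nfia: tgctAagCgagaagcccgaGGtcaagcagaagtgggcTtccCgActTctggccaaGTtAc

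Nfib: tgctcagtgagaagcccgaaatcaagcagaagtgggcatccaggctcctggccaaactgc

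Nfic: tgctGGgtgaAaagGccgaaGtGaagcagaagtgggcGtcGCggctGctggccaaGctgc

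Nfix: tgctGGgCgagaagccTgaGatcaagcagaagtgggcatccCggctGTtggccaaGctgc

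Against Nfib, 11 of these 60 bases differ in Nfia, 11 in Nfic and 9 in Nfix. The longest run of identical coding bases between any 2 members is 32, in Nfic and Nfix, with the sequence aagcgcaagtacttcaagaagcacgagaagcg. Nfib and Nfix share at most 21, atcaagcagaagtgggcatcc, which lies inside the stretch shown. No word of 50 bases in the annotated transcripts of one member occurs in those of another, out of 15091 such words in Nfib, 11026 in Nfia, 7477 in Nfix and 6711 in Nfic. Of the Nfix words, 8 occur in transcripts of genes outside the family.

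Nfib lies at chr4:82290173-82705750 on the minus strand of GRCm38 and Nfia at chr4:97772734-98118874 on the plus strand. Nfic lies at chr10:81396186-81455635 and Nfix at chr8:84699876-84800344, both on the minus strand. In the longest coding transcript of each member exon 2 is 532 bases long. That exon is 82.0% identical between Nfic and Nfix, 78.6% between Nfib and Nfix and 75.8% between Nfia and Nfic. Most of each transcript is untranslated: 1479 of 9116 bases are coding in Nfib (16.2%), 1527 of 9526 in Nfia (16.0%), 1284 of 6237 in Nfic (20.6%) and 1482 of 5476 in Nfix (27.1%). A count over the whole gene therefore includes mostly reads from outside any one coding exon. In Nfib exon 2 is 5.84% of the transcript, and the labels do not say which exons are floxed.

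Levels between genes are compared in FPKM, the authors' read counts scaled by gene length and library total. The edgeR tests also use TMM factors, a further scaling of each library, from 0.901 in WT tumor 2 to 1.18 in WT normal 2. Levels, ranges, sums and ratios in FPKM or CPM are given without these factors. Nfib, the targeted gene, was not lower in the libraries labelled KO. It had 9.15 FPKM in KO tumor 2, 8.15 in KO tumor 3 and 8.52 in KO normal 3, against 6.38, 4.31 and 8.53 FPKM in WT tumors 1, 2 and 3 and 10.8 and 8.08 in WT normals 2 and 3. The 3 KO values lay close together and inside the WT range. The mean was 8.61 ± 0.506 FPKM in KO libraries (SD, n = 3) and 7.62 ± 2.42 in WT libraries (SD, n = 5). In reads, Nfib had 1534, 1346 and 1386 counts in the KO libraries, against 1080, 828, 1290, 1235 and 1356 in the WT libraries. A whole-gene count does not show whether a floxed exon is missing from the transcripts, and does not separate hepatocytes from the other cells of the liver. The values therefore do not check the KO labels, and KO and WT name the labels only. As in any bulk tissue, fewer cells that express a gene and less RNA per cell cannot be told apart.

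**Figure D1:**
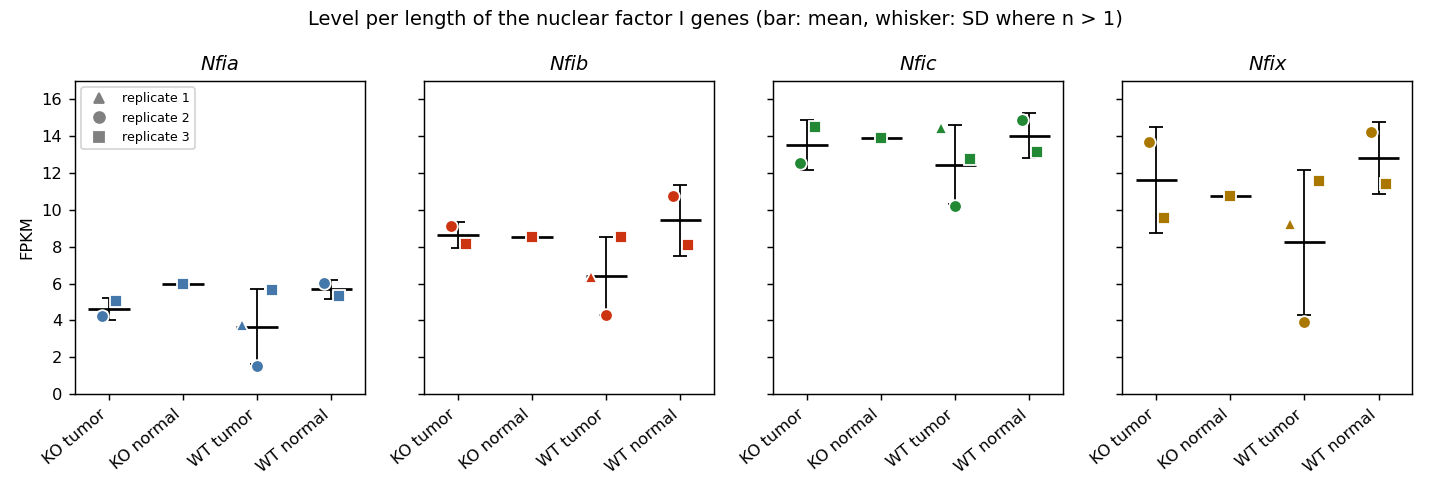
FPKM of each nuclear factor I gene in the 4 groups, with 1 point per library (triangle, circle and square for replicates 1, 2 and 3), the group mean as a bar and the SD as a whisker where a group has more than 1 library. In FPKM, which uses no TMM factor, the KO points of each gene fall inside the WT range. The circle among the WT tumors, replicate 2, is the lowest point of every panel.

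Nfia, which in mice is needed for formation of the corpus callosum and for glial development, was the least abundant member. It had 4.22 FPKM in KO tumor 2, 5.07 in KO tumor 3 and 5.97 in KO normal 3, against 3.77, 1.55 and 5.63 FPKM in WT tumors 1, 2 and 3 and 6.04 and 5.32 in WT normals 2 and 3. All KO values again lay within the WT range in FPKM. Divided by the TMM factors, 0.960 in KO normal 3 and 1.18 in WT normal 2, Nfia would be highest in KO normal 3. Its mean was 5.09 ± 0.878 FPKM in KO libraries (SD, n = 3) and 4.47 ± 1.84 in WT libraries (SD, n = 5).

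Nfic, which in mice is known for its part in tooth root formation, had the highest mean FPKM and was the least variable member. It had 12.5 FPKM in KO tumor 2, 14.5 in KO tumor 3 and 13.9 in KO normal 3, against 14.4, 10.2 and 12.7 FPKM in WT tumors 1, 2 and 3 and 14.9 and 13.2 in WT normals 2 and 3. The KO values stood within the WT range and the group means nearly coincided, at 13.7 ± 0.998 FPKM in KO libraries (SD, n = 3) and 13.1 ± 1.84 in WT libraries (SD, n = 5). Over the 8 libraries the coefficient of variation of Nfic CPM, the count scaled to the library total, was 11.4%, and 10.4% of all tested genes varied less. The coefficient was 24.1% for Nfib, 30.3% for Nfix and 32.0% for Nfia, near the middle of all tested genes, of which 43.4%, 54.4% and 56.8% varied less.

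Nfix, which in mice acts in the switch from embryonic to fetal muscle and in neural stem cells, was second in mean FPKM. It had 13.7 FPKM in KO tumor 2, 9.58 in KO tumor 3 and 10.8 in KO normal 3, against 9.22, 3.93 and 11.6 FPKM in WT tumors 1, 2 and 3 and 14.2 and 11.4 in WT normals 2 and 3. The highest and lowest FPKM values were both in WT libraries. Divided by the TMM factors, 1.05 in KO tumor 2 and 1.18 in WT normal 2, Nfix would be highest in KO tumor 2. The mean was 11.3 ± 2.10 FPKM in KO libraries (SD, n = 3) and 10.1 ± 3.87 in WT libraries (SD, n = 5).

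The order of the members by FPKM was Nfic, Nfix, Nfib, Nfia from high to low, and it was the same in 6 of the 8 libraries. The fixed length behind FPKM was 6643 bases for Nfic and 8327 for Nfix. In CPM, which uses no length, the means over the 8 libraries were 88.3 for Nfic and 87.8 for Nfix. The order of Nfic and Nfix thus rests on the lengths used. Their longest coding transcripts, 6237 bases in Nfic and 5476 in Nfix, have the reverse order of length. Differences within a library were tested on log2(FPKM + 0.1) with a two-sided exact sign-flip permutation test over the 8 libraries, for 6 pairs, with Benjamini-Hochberg adjustment. Nfic exceeded Nfib by 0.76 ± 0.29 and Nfia by 1.57 ± 0.50 on the log2 scale (SD, n = 8), Nfix exceeded Nfia by 1.16 ± 0.26, and Nfib exceeded Nfia by 0.81 ± 0.31. Each of these 4 differences had the same direction in 8 of 8 libraries, with an exact p of 0.00781, the smallest the test can give, and an adjusted p of 0.0117. In CPM, however, Nfib exceeded Nfic in KO tumor 2 (88.0 against 83.3) and in WT normal 2 (103.7 against 98.9). The order of Nfic and Nfib in those libraries thus rests on the lengths too. A fixed length enters every library alike, so this test does not cover an error in it. The neighbours at the top were less far apart. Nfic exceeded Nfix by 0.40 ± 0.46 in 7 of 8 libraries (exact p = 0.0234, adjusted 0.0234), with KO tumor 2 the exception. Nfix exceeded Nfib by 0.36 ± 0.23 in 7 of 8 libraries (exact p = 0.0156, adjusted 0.0188), with WT tumor 2 the exception. If libraries of 1 genotype with equal numbers are counted as 1 unit, 5 units remain and the smallest possible p is 0.0625, so that no pair can pass. By mean FPKM over the 8 libraries the members ranked 88 (Nfic, 13.3), 119 (Nfix, 10.5), 159 (Nfib, 7.99) and 260 (Nfia, 4.70) among the 1368 genes that the deposited annotation lists with a transcription factor class.

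The 4 members together gave 39.6 and 37.3 FPKM in KO tumors 2 and 3 and 39.2 in KO normal 3, against 33.8, 19.99 and 38.5 FPKM in WT tumors 1, 2 and 3 and 45.9 and 38.0 in WT normals 2 and 3. The KO sums lay within the WT range in FPKM, which leaves out the TMM factors. With those factors, the sum of KO normal 3 would lie above that of every WT library. Nfib made up 21.8% to 23.1% of that sum in KO libraries and 18.9% to 23.5% in WT libraries. The targeted gene thus held much the same share of family transcripts in libraries of either label. Nfic held 31.7% to 38.9% in KO libraries and 32.4% to 51.0% in WT libraries, the highest share being that of WT tumor 2. The share of Nfix was 25.7% to 34.5% in KO libraries and 19.6% to 31.0% in WT libraries, and that of Nfia 10.7% to 15.2% in KO libraries and 7.78% to 14.6% in WT libraries.

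**Figure D2:**
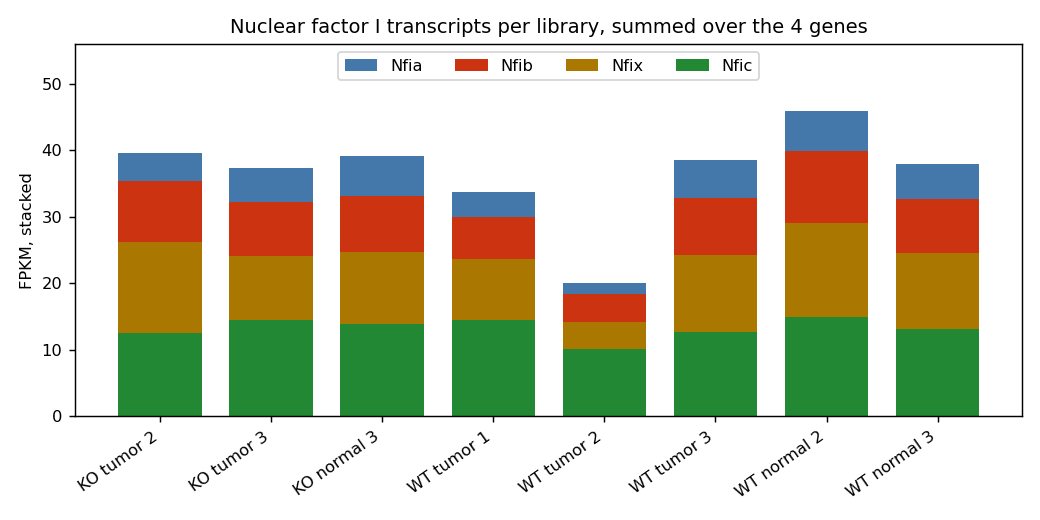
FPKM of the 4 members stacked for each library, Nfic at the bottom, then Nfix, Nfib and Nfia. The sum is lowest in WT tumor 2, at 19.99 FPKM, and highest in WT normal 2, at 45.9 FPKM.

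Libraries labelled KO were set against those labelled WT over both tissues. No member passed the test. In the edgeR quasi-likelihood test over all 14726 genes, adjusted for tissue, 0 of 4 members and 0.00% of all tested genes had a Benjamini-Hochberg adjusted p under 0.05. At an unadjusted p under 0.05 there were 0 of 4 members and 6.85% of all tested genes. DESeq2 called 45 genes and limma-voom 0, none of them a member. The log2 fold change of KO over WT was 0.27 ± 0.19 for Nfib (SE; edgeR adjusted p = 0.748), and its 95% interval ran from -0.17 to 0.71, or 0.890-fold to 1.64-fold. A whole-gene Nfib level in KO libraries below 0.890 of that in WT libraries lies outside this interval.

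The paralogs gave 0.31 ± 0.33 for Nfia, 0.10 ± 0.15 for Nfic and 0.28 ± 0.31 for Nfix (log2 fold change of KO over WT, SE). Their edgeR Benjamini-Hochberg adjusted p-values were 0.834, 0.880 and 0.837. The 95% intervals ran from -0.46 to 1.07 for Nfia, from -0.25 to 0.46 for Nfic and from -0.44 to 0.99 for Nfix. A doubling of Nfic lies outside its interval, whereas the interval of Nfia includes one. The median over the 4 members was 0.28, beside -0.021 over all tested genes. These estimates leaned on 1 library: without WT tumor 2 they were 0.089 for Nfia, 0.14 for Nfib, 0.048 for Nfic and 0.053 for Nfix. KO and WT CPM ranges overlapped for every member, whereas 5.76% of all tested genes had ranges that did not overlap.

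Between tumors alone, KO over WT gave log2 fold changes of 0.34 ± 0.44 for Nfia, 0.40 ± 0.24 for Nfib, 0.075 ± 0.21 for Nfic and 0.47 ± 0.39 for Nfix (SE; edgeR Benjamini-Hochberg adjusted p from 0.888 to 0.956). Again 0 of 4 members and 0.00% of tested genes passed, with 0 of 4 and 2.92% at an unadjusted p under 0.05. DESeq2 called 4 genes and limma-voom 0, none of them a member. The mean Nfib level was 8.65 ± 0.709 FPKM in KO tumors (SD, n = 2) and 6.41 ± 2.11 in WT tumors (SD, n = 3). The larger spread belonged to the WT tumors. KO and WT ranges overlapped for every member, whereas 17.1% of tested genes had ranges that did not overlap between these 2 and 3 libraries. Without WT tumor 2 the log2 fold changes were 0.19 for Nfib, 0.13 for Nfix, -0.036 for Nfic and -0.024 for Nfia, so that 2 of the 4 changed sign.

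The other axis of the design set tumor against normal liver, and it shares the 3 WT tumors with the comparison of tumors. In WT mice the log2 fold change of tumor over normal was -0.52 ± 0.44 for Nfia, -0.41 ± 0.24 for Nfib, -0.013 ± 0.21 for Nfic and -0.50 ± 0.39 for Nfix (SE). None passed: the edgeR Benjamini-Hochberg adjusted p was 0.993 for Nfic and 0.845 for the other three, with 0 of 4 members and 0.00% of tested genes called, and 0 of 4 and 2.32% at an unadjusted p under 0.05. DESeq2 called 13 genes and limma-voom 0, none of them a member. The mean in WT tumors was 3.65 ± 2.04 FPKM for Nfia, 6.41 ± 2.11 for Nfib, 12.5 ± 2.14 for Nfic and 8.24 ± 3.92 for Nfix (SD, n = 3). In WT normal livers it was 5.68 ± 0.509 FPKM for Nfia, 9.43 ± 1.91 for Nfib, 14.0 ± 1.22 for Nfic and 12.8 ± 1.97 for Nfix (SD, n = 2). Tumor and normal CPM ranges overlapped for each member, and 14.9% of tested genes had ranges that did not overlap. Without WT tumor 2 the log2 fold changes were -0.15 for Nfia, -0.20 for Nfib and -0.17 for Nfix, and Nfic stood at 0.094. Without WT tumor 3 they were -0.89 for Nfia, -0.59 for Nfib, -0.75 for Nfix and 0.030 for Nfic, still with no member past the threshold.

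Over both genotypes tumor over normal gave -0.48 ± 0.32 for Nfia, -0.28 ± 0.19 for Nfib, -0.043 ± 0.15 for Nfic and -0.31 ± 0.31 for Nfix (log2 fold change, SE). The edgeR Benjamini-Hochberg adjusted p was 0.967 for Nfic and 0.922 for the others. Of the 4 members 0 were called, as were 0.00% of tested genes, and at an unadjusted p under 0.05 there were 0 members and 1.76% of tested genes. DESeq2 called 5 genes and limma-voom 0, none of them a member. Ranges of CPM overlapped for each member here as well, and failed to overlap for 1.58% of tested genes. The tumor effect itself, KO minus WT, differed by 0.10 ± 0.74 for Nfia, 0.37 ± 0.41 for Nfib, -0.082 ± 0.35 for Nfic and 0.54 ± 0.66 for Nfix (log2, SE; edgeR Benjamini-Hochberg adjusted p = 0.9999 for each). That comparison rests on 1 KO normal library and its intervals are wide, for Nfib from -0.62 to 1.36. Again 0 of 4 members and 0.00% of tested genes were called, with 0 of 4 and 0.319% at an unadjusted p under 0.05, and DESeq2 and limma-voom called 0 genes.

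**Figure D3:**
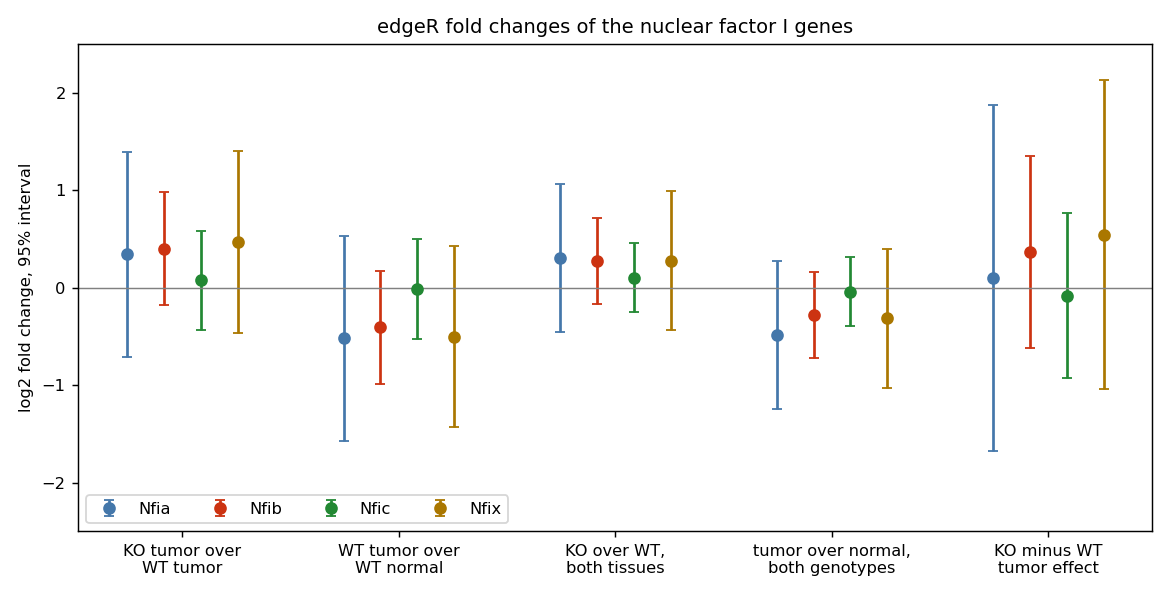
edgeR log2 fold changes of the 4 members in 5 comparisons, with 95% intervals as bars and no change as the horizontal line. Every interval includes 0, and the intervals of Nfic are the shortest within each comparison.

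Libraries of equal number were also set side by side, without a test. In the KO pair numbered 3 the ratio of tumor to normal CPM was 0.848 for Nfia, 0.956 for Nfib, 1.04 for Nfic and 0.890 for Nfix. In the WT pair numbered 3 it was 1.06 for Nfia, 1.06 for Nfib, 0.968 for Nfic and 1.014 for Nfix. Ratios in both pairs lay between 0.848 and 1.06. In the KO pair 14.0% of tested genes had a lower ratio than Nfia, 19.8% than Nfix, 34.7% than Nfib and 59.3% than Nfic. In the WT pair numbered 3 the share was 50.02% for Nfia, 49.5% for Nfib, 24.5% for Nfic and 37.9% for Nfix. In the WT pair numbered 2 the ratio was 0.257 for Nfia, 0.400 for Nfib, 0.685 for Nfic and 0.276 for Nfix. These ratios use library totals only. The TMM factors were 0.901 in WT tumor 2 and 1.18 in WT normal 2, and with them each ratio of this pair would be higher. Lower ratios in that pair were found for 7.52% of tested genes in the case of Nfia, 8.37% for Nfix, 15.7% for Nfib and 40.7% for Nfic. The authors' deposited tables for these 3 pairs, which list only genes past a p-value of 0.05 and a fold change of 2, hold 317, 270 and 1001 genes in that order, and 0 of the 4 members is in any of them.

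WT tumor 2 was the lowest of the 8 libraries for all 4 members, a pattern described after its values were seen. Within the 5 WT libraries and within the 5 tumor libraries, no library stood out for any member by Dixon's test, in which the larger gap at either end was 0.348 to 0.548 of the range, under the critical 0.71. Nfia had 16.1 CPM there (Poisson 95% interval 14.4 to 18.0) and 53.4 ± 9.02 CPM in the other 7 libraries (SD). Nfix had 32.7 CPM (30.2 to 35.3) and 95.7 ± 15.8 CPM in the other 7, and Nfib 41.5 CPM (38.7 to 44.4) and 81.9 ± 12.7 CPM. Nfic had 67.7 CPM (64.2 to 71.4), and 91.3 ± 6.15 CPM in the other 7. The ratio of WT tumor 2 to the mean of the others was thus 0.302 for Nfia, 0.342 for Nfix, 0.507 for Nfib and 0.742 for Nfic. The second-lowest library was WT tumor 1 for Nfia, Nfib and Nfix and KO tumor 2 for Nfic. The Poisson intervals cover counting error only and do not measure the spread between libraries.

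Sums over cell type markers went with the family in some libraries and not in others. The summed CPM of 8 endothelial markers was 586 and 389 in KO tumors 2 and 3 and 381 in KO normal 3, against 382, 167 and 824 in WT tumors 1, 2 and 3 and 850 and 676 in WT normals 2 and 3. For 7 markers of Kupffer cells and macrophages it was 172, 462 and 479 in KO tumors 2 and 3 and KO normal 3, against 238, 55.8 and 569 in WT tumors 1, 2 and 3 and 359 and 532 in WT normals 2 and 3. WT tumor 2 was the lowest library for both of these lists and for 5 lymphocyte markers. It was the highest for the 7 hepatocyte markers found in the data, at 164356 CPM against 76400 to 149148 in the other libraries. Hepatocyte transcripts were thus abundant in all 8. Alb alone gave 140883 CPM in WT tumor 2 and 50476 to 116648 CPM in the other libraries. The sum therefore ranks the libraries largely by Alb and does not give the rank of the other hepatocyte markers. WT tumor 2 was also the highest for 6 markers of dividing cells, at 53.6 CPM, and for 3 fetal liver and tumor markers, at 7307 CPM. Of the fetal sum Igf2 gave 5185 CPM and Afp, the fetal counterpart of albumin, gave 2112, which was nearly all of it. These last lists did not separate tumor from normal in every library. WT tumor 3 had 16.5 CPM of fetal markers and 22.0 CPM of markers of dividing cells, whereas KO normal 3 had 75.8 CPM of fetal markers and WT normal 2 had 32.6 CPM of markers of dividing cells. Besides WT tumor 2, some libraries went with the endothelial list. By library total, WT normal 2 was the highest library for that list, at 850 CPM, and for each member of the family. Divided by the TMM factors, 1.18 in WT normal 2 and 1.05 in WT tumor 3, the endothelial sum would be highest in WT tumor 3. Of the members, only Nfib would keep WT normal 2 as its highest library. WT tumor 1, at 382 CPM for that list, was second lowest for Nfia, Nfib and Nfix. Other libraries went against a list. KO tumor 2 was second lowest for the Kupffer cell and macrophage list but had the highest Nfib and Nfix of the KO libraries. KO normal 3 was second lowest for the endothelial list but had the highest Nfia of the KO libraries. In WT tumor 2 the 6 cholangiocyte markers summed to 615 CPM, second to the 788 CPM of WT normal 2, and the 7 stellate cell and fibroblast markers to 335 CPM, within the range of the other libraries. All of the endothelial, macrophage and hepatocyte markers were detected in every library. The part of cell makeup in the low values of the family was not tested.

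**Figure D4:**
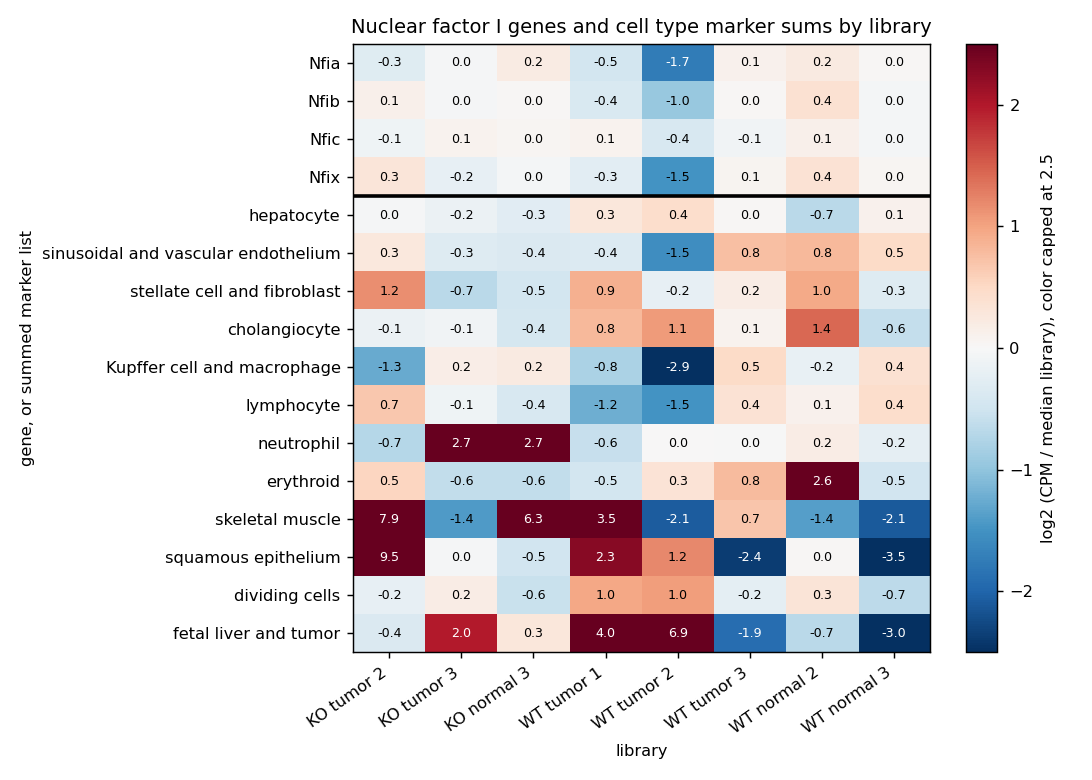
log2 of CPM over the median of the 8 libraries, for the 4 members (above the black line) and for the summed CPM of 12 marker lists, with the color scale capped at 2.5 and the values printed in the cells. In the column of WT tumor 2 the 4 members, the endothelial list and the Kupffer cell and macrophage list are below the median, and the fetal list is far above it.

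KO tumor 2 and KO normal 3 stood apart by skeletal muscle transcripts, with 6 muscle markers summing to 1460 and 468 CPM, against 2.21 CPM in KO tumor 3 and 1.38 to 66.0 CPM in the WT libraries. Skeletal muscle expresses Nfix, which had 13.7 FPKM in KO tumor 2 and 10.8 in KO normal 3. Both values lay within the 3.93 to 14.2 FPKM of the WT libraries. KO tumor 2 was also the highest library for 5 squamous epithelium markers, at 471 CPM against 0.0573 to 3.18 CPM elsewhere. Its sum of stellate cell and fibroblast markers, 868 CPM, was the highest as well. Without KO tumor 2 and KO normal 3 the KO side was 1 library, KO tumor 3. It was set against the WT tumors with a spread taken from the WT libraries. That fit gave log2 fold changes of 0.51 for Nfia, 0.37 for Nfib, 0.22 for Nfic and 0.25 for Nfix, none called by edgeR. Alb, whose promoter drives the Cre, gave 70577 to 91383 CPM in KO libraries and 50476 to 140883 CPM in WT libraries, so the driver gene was abundant in each. KO tumor 3 and KO normal 3 had 205 and 193 CPM of neutrophil markers, against 18.6 CPM in KO tumor 2 and 20.6 to 34.8 CPM in the WT libraries. The part of these cells in the KO values was not tested either.

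**Figure D5:**
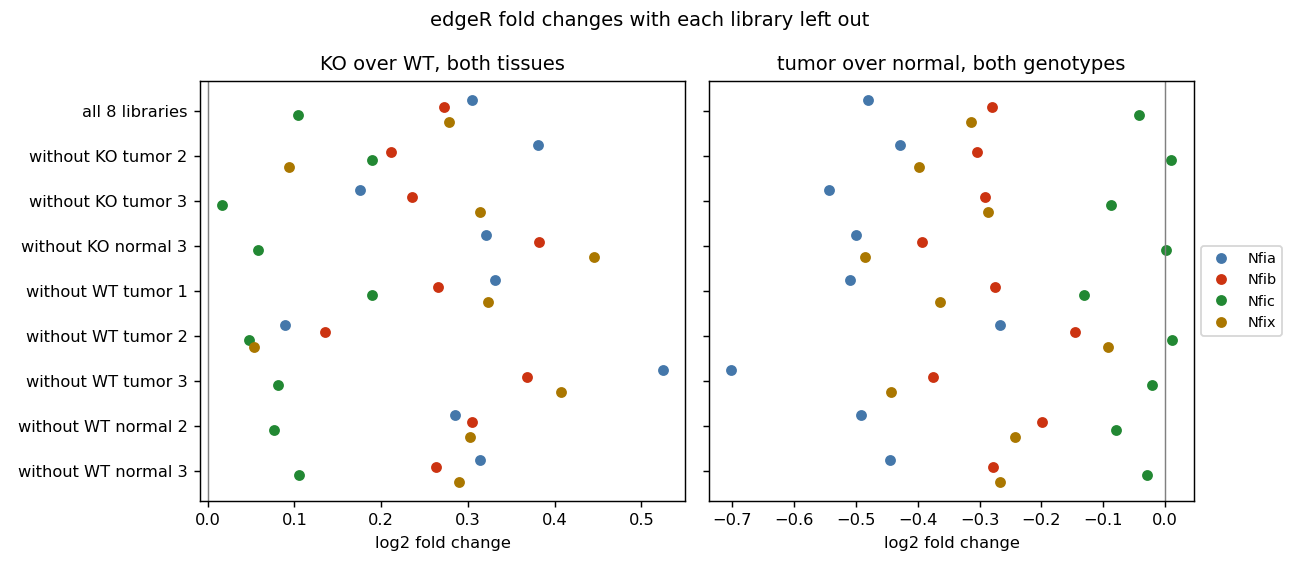
edgeR log2 fold changes of the 4 members with all 8 libraries and with each library left out, for KO over WT (left) and tumor over normal (right). Values for KO over WT stay above 0 for each member and come closest together without WT tumor 2, and Nfic crosses 0 in the tumor comparison.

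The members varied together over the 8 libraries. On log2(CPM + 0.5) the Pearson correlation was 0.96 for Nfib with Nfix, 0.92 for Nfia with Nfib and 0.91 for Nfia with Nfix. Nfic followed less closely, at 0.82 with Nfia, 0.74 with Nfix and 0.72 with Nfib. Much of this came from 1 library. Over the 7 libraries without WT tumor 2, the correlation was 0.87 for Nfib with Nfix, 0.66 for Nfia with Nfib, 0.35 for Nfia with Nfix and between -0.31 and 0.11 for Nfic with each of the others. The libraries share their depth and their mixture of cells across all genes, so these values are descriptions without a p-value. Among 10292 genes with a mean of at least 5 CPM, Nfix ranked 194 by likeness to Nfib and Nfib ranked 169 by likeness to Nfix.

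The genes most like each member were taken as the 5 with the highest correlation over the 8 libraries. For Nfib these were Cox7b, a subunit of cytochrome c oxidase, at 0.994, then 1110001J03Rik, the kinase gene Map3k8, Dgcr6 and the calpain gene Capn7, all at 0.991. For Nfia they were the sphingomyelinase gene Smpd2 at 0.992, Clec1b, which encodes a C-type lectin, at 0.991, the acetyltransferase gene Naa60 at 0.990, the cytokine receptor gene Cntfr at 0.989 and Rapgef4, a Rap exchange factor gene, at 0.988. No member was among the 5 of another. For Nfix they were Hcfc1r1 at 0.993, the matrix proteoglycan gene Dcn at 0.992, 2810474O19Rik at 0.992, the pseudogene Mup-ps12 at 0.991 and Ccs, the copper chaperone for superoxide dismutase, at 0.990. For Nfic they were Rffl at 0.982, Lacc1 at 0.973, the huntingtin gene Htt at 0.968, Cep85 at 0.966 and the ETS factor gene Elk1 at 0.955. With Spearman correlation in place of Pearson, 0 of the 5 named for Nfia, 1 of the 5 for Nfib, 3 for Nfic and 1 for Nfix were again among the closest 5.

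Among 16 liver-enriched transcription factors, regulators that act with one another on the promoters of hepatocyte genes, 0 were called by edgeR between KO and WT, as were 0.00% of all tested genes. At an unadjusted p under 0.05 there were 0 higher and 1 lower in KO, beside 6.85% of all tested genes. Nr5a2, a nuclear receptor of bile acid synthesis, had 60.7, 59.8 and 55.9 CPM in KO tumors 2 and 3 and KO normal 3, against 54.5, 46.8 and 45.0 CPM in WT tumors 1, 2 and 3 and 41.4 and 51.3 in WT normals 2 and 3. The groups did not overlap, as for 5.76% of all tested genes, and the log2 fold change was 0.31 ± 0.17 (SE; edgeR Benjamini-Hochberg adjusted p = 0.714). Foxa2, a forkhead factor of liver development, averaged 27.2 ± 4.15 CPM in KO libraries (SD, n = 3) and 24.2 ± 3.56 in WT libraries (SD, n = 5), with overlapping ranges and a log2 fold change of 0.22 ± 0.16 (SE; edgeR Benjamini-Hochberg adjusted p = 0.761). The median over the list was 0.065, with 9 of 16 positive, beside -0.021 over all tested genes.

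A second list held 16 genes whose promoters or expression have been linked to nuclear factor I proteins in other work, several of them in brain or muscle. Hes1, Ckm and Mmd2, like Nr5a2 and Foxa2, were named for a small p in this comparison, so that their separation follows in part from that choice. Of these 16, 0 were called by edgeR, as were 0.00% of all tested genes, and DESeq2 called 1, Hes1. At an unadjusted p under 0.05 there were 3 higher and 1 lower in KO, beside 6.85% of all tested genes, with 9 of 16 positive and a median of 0.077. The list was chosen with earlier results of these data known, so neither this count nor the one between tumors below is a test of it. The lower gene was Hes1, a repressor downstream of Notch, with 11.6, 11.9 and 8.52 CPM in KO tumors 2 and 3 and KO normal 3, against 30.6, 27.3 and 25.1 CPM in WT tumors 1, 2 and 3 and 21.6 and 27.0 in WT normals 2 and 3. The groups did not overlap, as for 5.76% of all tested genes. Its log2 fold change was -1.32 ± 0.18 (SE), with a Benjamini-Hochberg adjusted p of 0.705 in edgeR and 2.86e-05 in DESeq2.

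Mmd2, a target of Nfia in the developing spinal cord of mice and chicks, had 26.8, 38.2 and 33.5 CPM in KO tumors 2 and 3 and KO normal 3, against 7.56, 1.90 and 22.0 CPM in WT tumors 1, 2 and 3 and 8.98 and 12.1 in WT normals 2 and 3. Here too the groups did not overlap, as for 5.76% of all tested genes, with a log2 fold change of 1.72 ± 0.59 (SE; edgeR Benjamini-Hochberg adjusted p = 0.705). Ckm and Eno3, the muscle creatine kinase and muscle enolase genes, were the other two. Ckm had 254 CPM in KO tumor 2 and 80.0 in KO normal 3, the libraries rich in muscle transcripts, against 0.407 CPM in KO tumor 3 and 0 to 12.2 CPM in the WT libraries. Eno3 gave a log2 fold change of 1.86 ± 0.67 (SE; edgeR Benjamini-Hochberg adjusted p = 0.705). Afp, also on the list, had 16.5 to 16.8 CPM in KO libraries and 1.09 to 2112 CPM in WT libraries. Between KO and WT tumors alone, 0 of these 16 genes were called by edgeR, as were 0.00% of all tested genes, with 1 higher and 2 lower at an unadjusted p under 0.05, beside 2.92% of all tested genes.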

How the data were processed

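Frozen livers gave RNA by the mirVana kit; preparations with an RNA integrity number from 7 upward were made into TruSeq Stranded mRNA libraries, per the labels' protocols. The authors deposited raw counts per gene and FPKM values for the same 8 libraries. Total counts ran from 11912549 to 19965842 per library. Bowtie 0.12.2 and the builds mm8 and mm9 are named, without a role, per the submitters' processing notes; the counting method and its strand setting are not given in the sources used here. Exons of Nfia, Nfic and Nfix overlap genes on the opposite strand by 4, 72 and 141 bases, those of Nfib by 0. The deposited FPKM equalled count over library total and 1 fixed length per gene, within 0.01%, for 11215 of 11215 genes with at least 20 counts in every library, so it is a rescaling of the counts and no second measurement. The authors deposited log2 fold changes in tables of 1 library against 1 library, of which 3 were read. Another, whose name and columns disagree, was not used. In all, 16 columns of per-library values were not used.

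The tests used edgeR 4.0.16 under R 4.3.3, with TMM normalization, a minimum count of 10 in the expression filter and robust quasi-likelihood fits over all 8 libraries. Group means served KO tumor against WT tumor, WT tumor against WT normal and the difference between tumor effects. Genotype plus tissue served the others. For KO normal, a single library, the spread of the remaining groups was taken. P-values were Benjamini-Hochberg adjusted over 14726 genes, at a threshold of 0.05. The biological coefficient of variation was 0.440. CPM are counts over library totals, and Poisson intervals cover counting error only. Alternatives were DESeq2 1.42.0, limma 3.58.1 (voom, and log2 FPKM), other scalings and filters, replicate blocks and leaving out libraries. The fits were checked on simulated counts. Genes named beside the members were the 5 most correlated with each, those of each list with the smallest p for KO against WT, and Alb; Eno3 and Afp were added after their values were seen. One gene that this rule names is not reported here. The members and lists were chosen with earlier results of these data known. Gene positions and sequences are those of GENCODE M21 (GRCm38), not of the submitters' builds.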

Additional observations from a re-analysis of the deposited data

How the results depend on the processing

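No member passed the 0.05 threshold under any of the 19 to 21 settings of each comparison; the smallest adjusted p was 0.322, for Nfib in WT tumor against WT normal without WT tumor 3. Of 384 member fold changes under alternatives 361 kept their sign and 23 did not, each of these 23 being of Nfia or Nfic, and the cause was not tested. Leaving out 1 library gave log2 fold changes of -0.024 to 0.71 for Nfia and -0.13 to 0.22 for Nfic in KO tumor against WT tumor, -0.14 to 0.094 for Nfic in WT tumor against WT normal, and -0.13 to 0.011 for Nfic in tumor against normal. For the difference between tumor effects the ranges were -0.28 to 0.47 for Nfia and -0.30 to 0.060 for Nfic. Without the 2 muscle-rich libraries, an alternative chosen after the data were seen, Nfic was at 0.0018 in WT tumor against WT normal and in tumor against normal. For the difference between tumor effects Nfic was at 0.13 with library totals and with limma on log2(FPKM + 1), filtered or not, or log2(FPKM + 0.1), and at 0.14 and 0.22 with a replicate block across groups and within genotype. For KO against WT over both tissues each member was positive in 20 of 20 settings, with Nfib at 0.14 to 0.38.

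Over all genes, DESeq2 called 4 genes for KO tumor against WT tumor, 13 for WT tumor against WT normal, 45 for KO against WT and 5 for tumor against normal, where edgeR called 0 in each. Leaving out 1 library gave 0 to 2 edgeR calls for KO against WT, the 2 being S100a8 and S100a9 without KO tumor 2. limma on log2(FPKM + 1) with no filter called 1 gene for the difference between tumor effects, Acp7, named after its value was seen. The replicate block called 0 genes in every comparison, and same-numbered WT libraries deviated together with correlations of 0.20 and 0.24, over too few pairs to show that numbers pair the libraries. With equal-numbered libraries averaged, added after the data were seen, the member order was the same, but 5 units cannot reach p = 0.05: Nfic exceeded Nfix by 0.38 (exact p = 0.125), Nfib by 0.77 and Nfia by 1.60, Nfix exceeded Nfib by 0.40 and Nfia by 1.22, and Nfib exceeded Nfia by 0.83 (exact p = 0.0625 each). The members had 322 to 1984 counts per library.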
